A study of Mus musculus with 24 samples.

Results

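The aminoacyl-tRNA synthetases are the enzymes that join each amino acid to its tRNA, and 38 of the 16572 gene names of the deposited expression table belong to this family. Members were taken by gene symbol alone, as the names made of a 1-letter amino acid code and "ars" with or without a digit, together with Eprs, Farsa, Farsb, Fars2 and Tarsl2. A name ending in 2 marks the mitochondrial enzyme, except Tarsl2, a second cytosolic threonyl-tRNA synthetase, so that 21 members were cytosolic and 17 were mitochondrial. Kars and Gars were kept with the cytosolic members, although each of these single genes encodes both the cytosolic and the mitochondrial enzyme.

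The RNA came from class IV oocytes of mice labelled as strain C57BL/6 Barb (the methods describe a cross with SV129 mice), whose ovaries were digested at 7 days of age and plated as cultures without follicles. Growth lasted 9 days for the IV 5% O2 oocytes, with fresh medium each 24 hours, and 14 days for the IV 20% O2 oocytes, with fresh medium each 48 hours, and the labels give a diameter of 60 to 70 μm for both groups. The methods, however, describe a smaller size range for the IV 20% O2 oocytes, so oxygen, culture time, feeding and cell size cannot be told apart. Each group had 2 RNA-seq libraries. The table holds 1 pooled column per condition on a log2 scale, so no difference below has an SD, a p-value or a replicate check.

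Each synthetase activates its amino acid with ATP and transfers it to the matching tRNA, and the charged tRNA then serves the ribosome. Nuclear genes encode both sets of enzymes, one for the cytosol and one that is imported into mitochondria, where a small set of respiratory chain subunits is translated. A growing oocyte enlarges and makes and stores large amounts of protein, which draws on charged tRNAs. Uncharged tRNA activates the kinase encoded by Eif2ak4, which raises translation of the transcription factor ATF4, and several cytosolic synthetase genes are known targets of ATF4.

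On the linear scale nearly every value was a whole number of steps, each worth 1 read, which gave depths of 132185254 reads for IV 5% O2 and 40875363 reads for IV 20% O2. The values are thus RPM, reads scaled by the depth of the column, without a correction for length. Reads on the genes of the table made up 82.9% of this depth in IV 5% O2 and 72.8% in IV 20% O2. RPM does not correct for that, and its part in the differences below was not tested. A log2 difference is log2(RPM + 1) at 5% O2 less that at 20% O2, and the added 1 RPM is the pseudocount. Genes called at least 2-fold higher or lower have a log2 difference of at least 1 in size. Log2 differences were computed for 14704 genes whose mean reached 1 RPM, and the median gene was 0.26 higher in IV 5% O2. The 9 oocyte markers summed to 8842 RPM at 5% O2 and 12279 RPM at 20% O2. Zp2, at 1537 and 3807 RPM, and Zp3, at 690 and 1501 RPM, differed most. Of the 9, 3 were higher in IV 5% O2, namely Nobox, at 496 and 271 RPM, Ddx4 and Nlrp5. Of 14 markers of theca and stroma, 10 had a row, and these summed to 41.1 RPM and 4.87 RPM, with 6 of the 7 above 1 RPM at least 2-fold higher in IV 5% O2 and with Vim, Dcn and Col1a2 at 0 reads in IV 20% O2. The 5 granulosa markers with a row summed to 31.2 and 24.2 RPM, the 3 endothelial markers to 61.0 and 36.1 RPM and the 3 macrophage markers to 17.9 and 21.1 RPM. Single markers differed more than these sums, which Nr5a2, Cyp19a1 and Pecam1 dominate for granulosa and endothelial cells. Inha had 89 reads, Kdr 172 reads and Lyz2 184 reads in IV 5% O2 and each had 0 in IV 20% O2, Tek had 13.8 and 3.401 RPM and Inhba 2.63 and 0.758 RPM, whereas Fshr had 0 and 6 reads, and of the macrophage markers Csf1r alone was lower in IV 5% O2. None of 4 erythroid markers had a row. Synthetases are used by every cell type, and the part of such cells in the differences below was not tested. In such pooled RNA, fewer cells of a type and less RNA per cell cannot be told apart.

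All 38 synthetases had reads in both columns, and the lowest read counts were 90 in IV 5% O2, for Nars2, and 133 in IV 20% O2, for Aars2. To compare genes, RPM was divided by the length of all annotated exons of a gene in kb, and the order of genes depended on that length. Nars, the cytosolic asparaginyl-tRNA synthetase, had the highest level per kb of exon in both columns, at 76.1 RPM per kb in IV 5% O2 and 59.8 RPM per kb in IV 20% O2. In IV 5% O2 it was followed by Farsb, Rars, Gars and Sars, at 69.2, 60.5, 57.4 and 55.5 RPM per kb. These are the β subunit of the phenylalanyl enzyme and the arginyl, glycyl and seryl enzymes, and with Nars they made up 51.1% of the summed cytosolic level. In IV 20% O2 the 5 highest cytosolic genes were Nars, Iars, Farsb, Rars and Gars, with 50.7% of the cytosolic sum. Per kb of the longest coding transcript, Nars stayed the highest in IV 5% O2 at 121 RPM per kb, but in IV 20% O2 Lars2, the mitochondrial leucyl-tRNA synthetase, led at 170 RPM per kb, followed by Nars at 94.8, Eprs at 76.8, Qars at 72.9, Rars at 71.6 and Farsb at 60.8. The cytosolic range was wide, since Tarsl2 was lowest in both columns, at 0.87 and 0.70 RPM per kb, followed in IV 5% O2 by Yars and Vars at 1.52 and 2.15 RPM per kb. The 2 subunits of the cytosolic phenylalanyl enzyme, which are joined in equal number in the protein, differed in mRNA level per kb, with Farsb at 69.2 and Farsa at 19.5 RPM per kb in IV 5% O2 and at 47.3 and 8.81 RPM per kb in IV 20% O2. The gap was smaller per kb of the longest coding transcript, at 89.1 and 48.4 RPM per kb in IV 5% O2 and at 60.8 and 21.9 RPM per kb in IV 20% O2.

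The mitochondrial synthetases lay lower. Their median was 2.30 RPM per kb in IV 5% O2 and 1.65 RPM per kb in IV 20% O2, against 19.5 and 19.1 RPM per kb for the cytosolic genes. The ranges overlapped, and 15 of 17 mitochondrial genes in IV 5% O2 and 16 of 17 in IV 20% O2 lay above Tarsl2. In IV 5% O2 the highest mitochondrial gene was Rars2 at 9.35 RPM per kb, and 17 of the 21 cytosolic genes lay above it, although Fars2 was the highest per kb of the longest coding transcript, at 18.5 RPM per kb. In IV 20% O2 the highest was Lars2, at 59.7 RPM per kb, close to the 59.8 RPM per kb of Nars, and Rars2 followed at 7.47 RPM per kb.

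**Figure D1:**
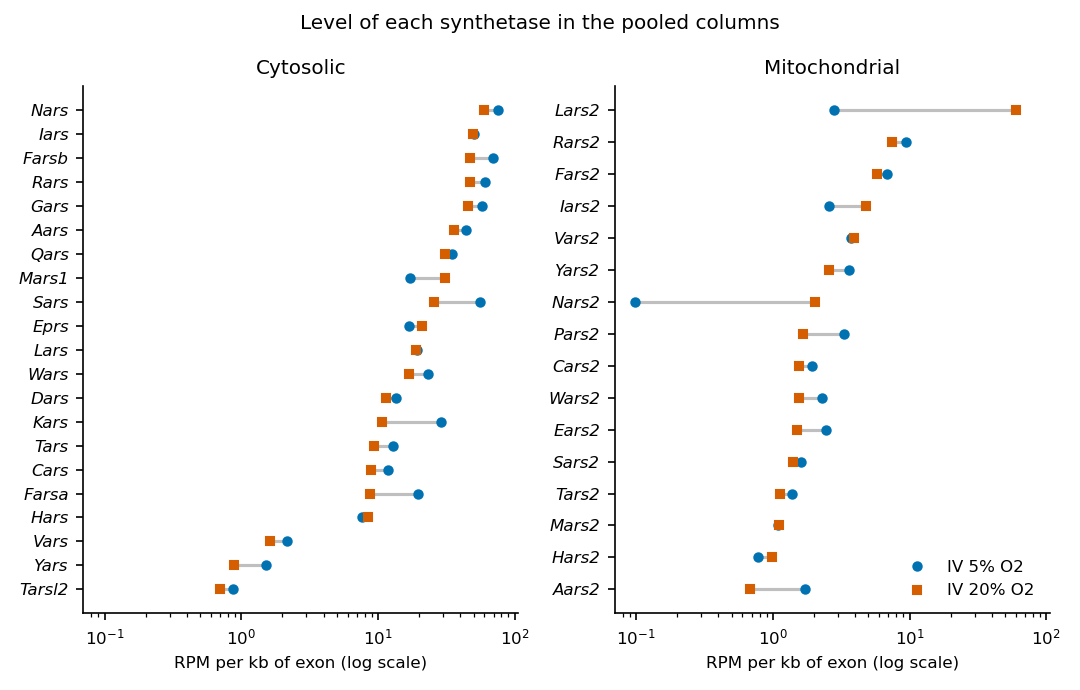
Level of 21 cytosolic (left) and 16 mitochondrial (right) synthetase genes in RPM per kb of exon on a log axis, with circles for the IV 5% O2 column, squares for the IV 20% O2 column and a grey line between them. The symbols lie furthest apart for Lars2, at 2.78 in IV 5% O2 and 59.7 in IV 20% O2, and for Nars2, at 0.098 and 2.04.

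The summed cytosolic level was 624 RPM per kb in IV 5% O2 and 490 RPM per kb in IV 20% O2, and the summed mitochondrial level was 47.6 and 101 RPM per kb. Mitochondrial genes therefore held 7.08% of the sum in IV 5% O2 and 17.1% in IV 20% O2. This difference rested on Lars2, since without it the shares were 6.69% and 7.75%, and the mitochondrial sums were 44.8 and 41.2 RPM per kb. With the longest coding transcript as length, the shares including Lars2 were 7.94% and 23.5%.

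**Figure D2:**
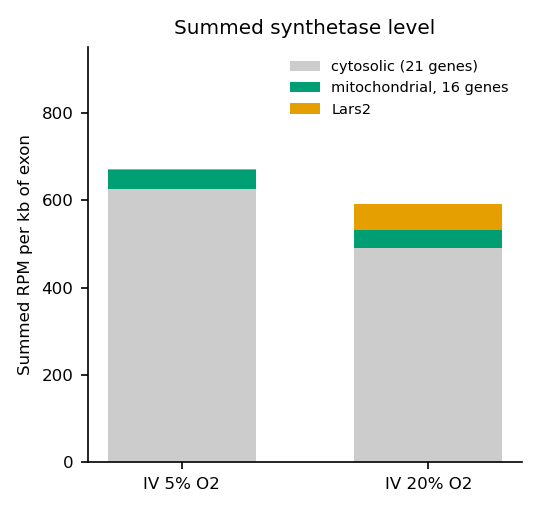
Summed level of the synthetase genes in RPM per kb of exon for each pooled column, stacked as 21 cytosolic genes (grey), 16 mitochondrial genes (green) and Lars2 (orange). The cytosolic part is 624 in IV 5% O2 and 490 in IV 20% O2, the 16 mitochondrial genes give 44.8 and 41.2, and Lars2 is visible only in IV 20% O2.

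Between the columns, 4 of the 38 members, or 10.5%, were at least 2-fold higher in IV 5% O2, against 18.7% of all genes tested. At least 2-fold lower in IV 5% O2 were 2 members, or 5.26%, against 9.22% of all genes. The higher members were Kars, Farsa, Sars and Aars2, and the lower members were Lars2 and Nars2, both mitochondrial. The cytosolic median log2 difference was 0.35, or 0.089 above the median gene, and 14 of 21 cytosolic genes lay above the median gene, as 50% of all genes do by construction. The mitochondrial median was 0.23, or -0.033 relative to the median gene, with 7 of 17 above it. Without a reference to the median gene, 18 of 21 cytosolic and 10 of 17 mitochondrial values were higher in IV 5% O2, against 62.6% of all genes. These counts were 12 and 6 under median-ratio scaling and 15 and 9 under quantile normalization. The 2 scalings put the median of all genes at -0.027 and 0.059. Kars alone stayed at least 2-fold higher under both of these scalings, and Lars2 and Nars2 stayed at least 2-fold lower, joined by Mars1 and Iars2. Under the same scalings, 1758 and 1799 of the 14704 genes were at least 2-fold higher and 2003 and 1831 lower.

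**Figure D3:**
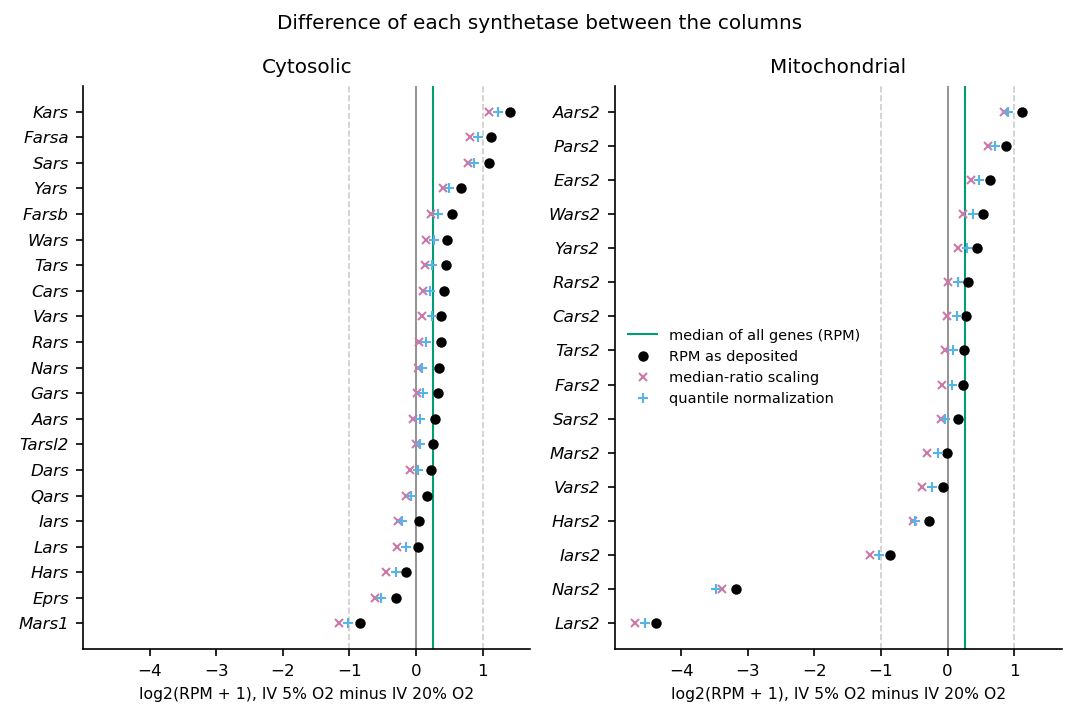
Difference in log2(RPM + 1), 5% O2 less 20% O2, for 21 cytosolic (left) and 16 mitochondrial (right) synthetases, with dots for RPM as deposited, crosses for median-ratio scaling and plus signs for quantile normalization. The green line is the median of all genes at 0.26, the dashed lines mark a 2-fold difference, and Lars2 and Nars2 lie far to the left of the other genes shown under each scaling.

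Among cytosolic genes, Kars, the lysyl-tRNA synthetase (chr8:111993443-112011323, minus strand, GRCm38), reached 130 RPM at 5% O2 and 48.1 RPM at 20% O2. Its log2 difference was 1.41, with an interval of the read ratio from 1.37 to 1.502 (exact 95% Clopper-Pearson, log2 scale, counting error only), and it was 1.10 and 1.23 under the median-ratio and quantile scalings. Of its exon bases, 9.99% have near copies elsewhere in the genome. Farsa, the α subunit of the cytosolic phenylalanyl enzyme (chr8:84856989-84869257, plus strand), had 88.3 and 40.0 RPM, a log2 difference of 1.12 with an interval of 1.07 to 1.22. Its partner Farsb had 181 and 124 RPM and a smaller log2 difference of 0.55. Sars, the seryl enzyme (chr3:108424865-108445209, minus strand), had 286 and 132 RPM, a log2 difference of 1.10 with an interval of 1.07 to 1.15. Under the median-ratio and quantile scalings, Farsa gave 0.81 and 0.93 and Sars 0.79 and 0.88, so both stayed higher in IV 5% O2 by less than 2-fold.

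In the other direction, Mars1, the methionyl enzyme that also charges the initiator tRNA, was the lowest of the cytosolic genes (chr10:127296221-127311786, minus strand). It reached 58.5 RPM at 5% O2 and 105 RPM at 20% O2, a log2 difference of -0.84 with an interval of -0.90 to -0.79, and it passed 2-fold only under the scalings, at -1.15 and -1.02. Mars1 shares 68 exon bases with the opposite strand of Ddit3, which had 101 and 80.0 RPM and so lay the other way on RPM. Eprs, which holds the glutamyl and the prolyl enzyme in 1 chain (chr1:185363044-185428360, plus strand), had 306 and 377 RPM, a log2 difference of -0.30 with an interval of -0.32 to -0.27. Hars, the histidyl enzyme, had 18.7 and 20.8 RPM and a log2 difference of -0.14, with an interval of -0.26 to -0.036. Eprs gave -0.62 and -0.52 and Hars -0.45 and -0.30 under the 2 scalings, so the 3 cytosolic genes with the lowest differences kept their direction. The remaining 15 cytosolic genes lay between 0.025 for Lars and 0.68 for Yars. Under median-ratio scaling Aars, Dars, Iars, Lars, Qars and Tarsl2 turned to the other direction, and under quantile normalization Iars, Lars and Qars did. Aars shares 14.3% of its exon bases with Exosc6 on the same strand, and 39.5% of those of Iars have near copies elsewhere in the genome.

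Among mitochondrial genes, the largest difference towards IV 5% O2 was that of Aars2, the alanyl enzyme (chr17:45506841-45520843, plus strand), with 8.25 RPM at 5% O2 and 3.25 RPM at 20% O2. The log2 difference was 1.12, with an interval of the read ratio from 1.08 to 1.61, but at 133 reads in IV 20% O2 it depended on the pseudocount and was 0.68 with 5 RPM. Pars2, the prolyl enzyme (chr4:106651069-106655282, plus strand), had 10.3 and 5.11 RPM, a ratio of 2.01. With the pseudocount its log2 difference was 0.88, under 2-fold, and the interval of the read ratio was 0.80 to 1.22. Ears2, the glutamyl enzyme (chr7:122037213-122067263, minus strand), had 12.6 and 7.78 RPM, and a log2 difference of 0.64 with an interval of 0.53 to 0.88. All 3 stayed higher in IV 5% O2 under the median-ratio and quantile scalings, where Aars2 gave 0.85 and 0.91, Pars2 0.60 and 0.71 and Ears2 0.35 and 0.48.

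Lars2 (chr9:123366927-123462666, plus strand) was 21.5-fold lower in IV 5% O2 by the ratio of RPM. It had 30.9 RPM from 4081 reads against 662 RPM from 27079 reads. The log2 difference was -4.38, with an interval of -4.47 to -4.38 for the read ratio, and -4.69 and -4.55 under the scalings. In the annotation, 398 of the 11089 exon bases of Lars2 (chr9:123461792-123462189), which lie in its 3′ UTR beyond the last coding base, have 11 near copies of at least 90% identity on 9 chromosomes, the closest with 98.8% identity. The share of the Lars2 reads that fell in that stretch was not tested. Nars2, the asparaginyl enzyme (chr7:96951505-97064758, plus strand), was 20.9-fold lower in IV 5% O2 by the ratio of RPM. It had 0.68 RPM from 90 reads against 14.2 RPM from 582 reads. Its log2 difference was -3.18, with an interval of -4.72 to -4.06 for the read ratio, which carries no pseudocount. The pseudocount shrinks this difference, which was -1.76 with 5 RPM and -4.20 with 0.1 RPM, and it was -3.39 and -3.47 under the scalings. Nars2 shares 284 exon bases, 4.08% of its exons, with C230038L03Rik on the opposite strand, a gene with 1 read in IV 5% O2 and 79 reads in IV 20% O2. The libraries were strand-specific, but whether the counting used strand is not given in the sources used here, which also bears on the opposite-strand overlaps of Mars1, Iars2 and Vars2.

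Iars2, the isoleucyl enzyme (chr1:185284726-185329396, minus strand), reached 23.1 RPM at 5% O2 and 42.7 RPM at 20% O2, a log2 difference of -0.86 with an interval of -0.97 to -0.80. It passed 2-fold under both scalings, at -1.17 and -1.03. Rab3gap2 covers 22.9% of its exon bases on the opposite strand and lay the other way on RPM, at 241 and 190. Hars2, the histidyl enzyme, lay in the same direction at -0.27. A further 9 mitochondrial genes lay between -0.072 for Vars2 and 0.53 for Wars2. Cars2, Fars2, Sars2 and Tars2 were higher in IV 5% O2 on RPM and lower under median-ratio scaling, and Sars2 also under quantile normalization. The interval of the read ratio held 0 for Mars2, Sars2 and Vars2, and for Lars among the cytosolic genes.

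The mitochondrial enzyme of 17 amino acids could be set beside the cytosolic enzyme of the same amino acid, in 18 pairs, since both subunits of the cytosolic phenylalanyl enzyme pair with Fars2 and Eprs pairs with both Ears2 and Pars2. The cytosolic gene had the higher level per kb in 16 of 18 pairs in IV 5% O2 and in 15 of 18 in IV 20% O2. With the longest coding transcript as length these counts were again 16 and 15. The median ratio was 8.17 in IV 5% O2 and 8.44 in IV 20% O2 per kb of exon, and 9.30 and 6.98 per kb of the coding transcript. Val and Tyr were the exceptions in both columns, where Vars lay at 0.58 and 0.41 of Vars2 and Yars at 0.42 and 0.35 of Yars2, or 0.77 and 0.63 with the coding transcript. Vars2 shares 8.52% of its exon bases with Gm20483 on the opposite strand, which had 164 and 96.6 RPM beside 20.2 and 21.3 RPM for Vars2, and 8.93% of the exon bases of Vars have near copies elsewhere. Leu was the exception only in IV 20% O2, where Lars lay at 0.32 of Lars2, against a ratio of 6.98 in IV 5% O2, and these were 0.15 and 3.30 with the coding transcript. For Asn the ratio was 778 in IV 5% O2 and 29.2 in IV 20% O2. The ratio was higher in IV 5% O2 in 13 of 18 pairs. It was higher in IV 20% O2 for Pro, Glu, Ala, Met and Trp, where the mitochondrial gene had the larger log2 difference. In the pairs of Eprs, the cytosolic gene lay at -0.30 and the mitochondrial genes Pars2 and Ears2 at 0.88 and 0.64. On RPM, both genes were higher in IV 5% O2 in 9 pairs, both were lower in 2, and the directions were opposite in 7. These counts moved to 3, 5 and 10 under median-ratio scaling and to 8, 4 and 6 under quantile normalization.

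**Figure D4:**
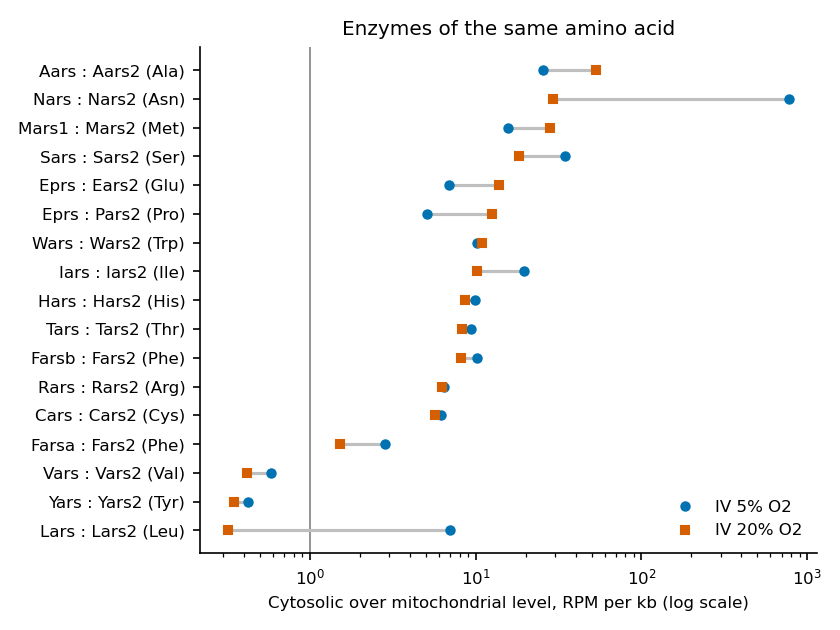
Ratio of the cytosolic to the mitochondrial level (RPM per kb of exon, log axis) for 17 pairs of genes of the same amino acid, with circles for IV 5% O2, squares for IV 20% O2 and a line at 1. Vars and Yars lie under 1 in both columns, and the Leu and Asn pairs span the widest range between the columns, from 0.32 to 6.98 and from 29.2 to 778.

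In mammals, 8 cytosolic synthetases (Eprs, Iars, Lars, Mars1, Qars, Rars, Kars and Dars) are held with 3 scaffold proteins in the multisynthetase complex. Their median log2 difference was 0.11, or -0.15 relative to the median gene, and 2 of 8 lay above the median gene. The complex held both extremes of the cytosolic genes, Kars at 1.41 and Mars1 at -0.84. The 13 cytosolic genes outside the complex had a median of 0.41, or 0.16 above the median gene, and 12 of 13 lay above it, all except Hars. Of the scaffold genes, Aimp1 had 35.8 and 16.8 RPM and was at least 2-fold higher in IV 5% O2, with a log2 difference of 1.05, which was 0.74 under median-ratio and 0.89 under quantile scaling. The other two, Eef1e1 and Aimp2, had log2 differences of 0.63 and 0.027, and Aimp2 was at -0.29 under median-ratio scaling and at -0.15 under quantile normalization.

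Synthetases fall into 2 structural classes with unrelated folds. At least 2-fold higher in IV 5% O2 were 3 of 11 class II cytosolic genes (Kars, Farsa and Sars), 1 of 8 class II mitochondrial genes (Aars2) and 0 of 18 class I genes, against 18.7% of all genes, and under both scalings only Kars was. The medians of the classes were close, at 0.37 for 9 class I and 0.35 for 11 class II cytosolic genes and at 0.28 for 9 class I and 0.19 for 8 class II mitochondrial genes, with Eprs kept apart because it holds a domain of each class.

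The C/EBP-ATF response element is a site at which ATF4 binds, and promoters were searched on both strands for its core letters TGATGNAA, where N is any base. RefSeq promoter windows of GRCm38.p6, from 250 bases before to 50 after the start, were held for 29 of the 38 members. The letters were present in 5 of 14 cytosolic genes (Aars, Gars, Iars, Tars and Yars) and in 0 of 15 mitochondrial genes, against 4.51% of the 27025 genes of the table of windows. A match is a description of letters and was not tested as a binding site. The windows of the gene with 2 matches and of the genes with the smallest and the largest log2 difference among the 5 are shown 5′ to 3′, with the matched letters, read on either strand, in capitals.
Aars (chr8:111033592-111033891, plus strand): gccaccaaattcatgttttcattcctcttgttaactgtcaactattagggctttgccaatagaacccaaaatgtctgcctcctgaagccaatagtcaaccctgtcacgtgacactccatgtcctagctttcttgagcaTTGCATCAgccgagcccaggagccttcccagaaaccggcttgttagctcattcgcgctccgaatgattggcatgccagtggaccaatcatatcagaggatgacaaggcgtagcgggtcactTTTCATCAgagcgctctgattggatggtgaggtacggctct
Iars (chr13:49681880-49682179, plus strand): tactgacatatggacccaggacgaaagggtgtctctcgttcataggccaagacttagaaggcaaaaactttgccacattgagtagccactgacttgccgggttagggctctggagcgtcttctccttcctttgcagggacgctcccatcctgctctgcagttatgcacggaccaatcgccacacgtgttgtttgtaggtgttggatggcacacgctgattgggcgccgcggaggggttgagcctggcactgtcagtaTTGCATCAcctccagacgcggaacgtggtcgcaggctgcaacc
Yars (chr4:129189653-129189952, plus strand): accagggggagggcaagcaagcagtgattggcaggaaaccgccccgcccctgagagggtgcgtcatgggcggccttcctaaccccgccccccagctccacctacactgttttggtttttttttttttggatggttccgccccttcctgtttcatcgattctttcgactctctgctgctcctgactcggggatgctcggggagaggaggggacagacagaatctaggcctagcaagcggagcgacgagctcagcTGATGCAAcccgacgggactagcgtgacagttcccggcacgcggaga
The matches begin at bases 139 and 260 of the Aars window, base 258 of the Iars window and base 254 of the Yars window, counted from 1. The log2 differences of the 5 genes with the letters ranged from 0.044 for Iars to 0.68 for Yars, with a median of 0.33, and none was 2-fold apart. The 9 cytosolic genes with a window and without the letters ranged from -0.84 to 1.41, with a median of 0.26.

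Genes around tRNA charging were counted in 8 further lists, with 53 genes tested. Of these, 5 were at least 2-fold higher and 5 at least 2-fold lower in IV 5% O2, or 9.43% in each direction, against 18.7% of all genes higher and 9.22% lower. Under either scaling, 1 of the 53 genes was at least 2-fold higher and 6 were lower. Of the 14704 genes tested, 1758 and 1799 were at least 2-fold higher under median-ratio and quantile scaling, and 2003 and 1831 lower. The amino acid response list, which holds Atf4, the gene of its upstream kinase Eif2ak4 and other genes of that response, had the lowest median, -0.23, or -0.49 relative to the median gene. Of its 16 genes, 0 were at least 2-fold higher and 4 at least 2-fold lower in IV 5% O2, or 25.0%, beside the 18.7% and 9.22% of all genes. The list was mixed, since 7 of its genes lay above 0 on RPM, up to 0.91, and 5 and 6 did under median-ratio and quantile scaling. The 4 lower genes were Chac1, which degrades glutathione, at -1.76, the serine synthesis enzyme gene Psat1 at -1.55, the stress protein gene Nupr1 at -1.38 and the asparagine synthetase gene Asns at -1.10. Nupr1 was low, with 72 and 123 reads, or 0.54 and 3.01 RPM, and its difference depends on the pseudocount. Its interval of the read ratio, which carries no pseudocount, was -2.91 to -2.03. Asns, which makes the amino acid that Nars and Nars2 use, reached 83.4 RPM at 5% O2 and 179 RPM at 20% O2. Beside these, 18 of the 21 cytosolic synthetases were higher and 3 lower on RPM, against 62.6% of all genes higher. Under median-ratio scaling 12 were higher and 9 lower, and under quantile normalization 15 and 6. The median of all genes lay at -0.027 and 0.059 under these scalings, not at 0.26, and the difference between the lists was not tested.

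The 5 cytosolic elongation factor genes, which deliver charged tRNA and move the ribosome, had a median of 0.81. Of these, Eef1d and Eef1g were at least 2-fold higher in IV 5% O2, at 1.14 and 1.06, beside 18.7% of all genes. Both stayed higher but under 2-fold with the median-ratio and quantile scalings, Eef1d at 0.82 and 0.92 and Eef1g at 0.75 and 0.88. Eef1a1 had the highest level of the list, at 493 and 455 RPM per kb, and a log2 difference of 0.12, which was -0.20 under median-ratio and -0.22 under quantile scaling. The 4 mitochondrial elongation factor genes had a median of 0.21. Among 9 genes of tRNA end processing and export, Ssb, which binds the 3′ ends of new tRNAs, was at 1.54, with 545 and 187 RPM. Xpot, the nuclear export receptor of tRNAs, was at -1.78, with 12.9 and 46.7 RPM, and the median of the list was 0.57. Of 6 selenocysteine-tRNA genes, Secisbp2 was at 1.11, or 0.80 and 0.95 under the scalings, and the median was 0.54. The 6 editing and deacylase genes and the 4 genes of mitochondrial Gln-tRNA and Met-tRNA modification had medians of 0.017 and 0.047, with none 2-fold apart.

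**Figure D5:**
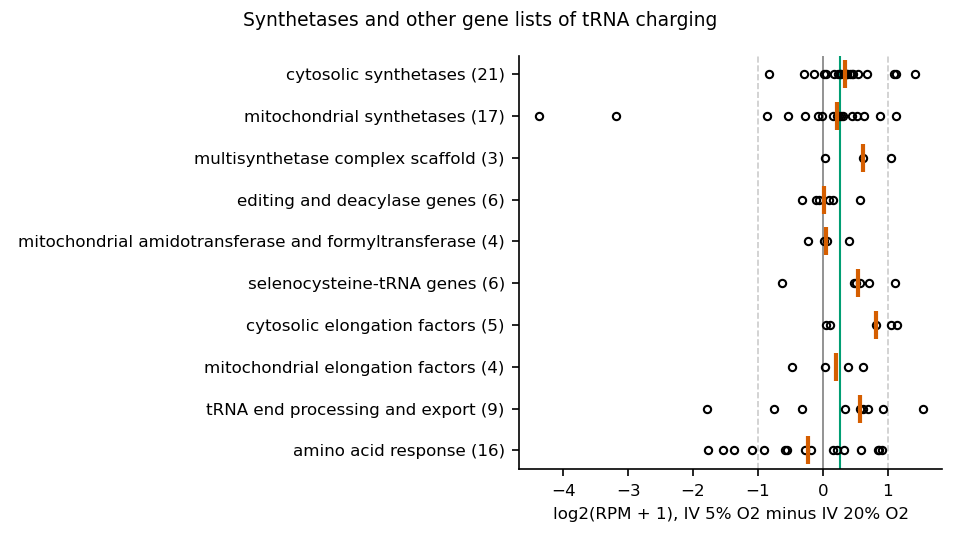
Difference in log2(RPM + 1), 5% O2 less 20% O2, for each gene (circles) of the cytosolic and mitochondrial synthetases and of 8 other gene lists, with the median of each list as an orange bar, the median of all genes as a green line and 2-fold as dashed lines. The amino acid response list has the lowest median, -0.23, and the cytosolic elongation factors the highest, 0.81.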

How the data were processed

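Reads were trimmed, mapped to mm10 by TopHat and quantified over exons with SeqMonk by the authors, who deposited 1 pooled column of log2 values per condition; tool versions listed with the submitters' notes include Trim Galore 0.3.5 and TopHat2 2.0.9. How the 2 libraries were pooled is not given in the sources used here. The values were read as log2 RPM because 99.93% of them at 5% O2 and 99.98% at 20% O2 were whole reads within 0.05 of a read, and genes listed at 0.9 of a read were set to 0. For 18 names with several rows, the row with the highest mean was used. One further value column (1 in all) matched no sample and was not used, and RRBS and PBAT libraries were not analysed here. Exon length, overlaps and promoters came from GENCODE (M21, GRCm38) and RefSeq, and near copies (at least 100 bases, 90% identity) from BLAST 2.17.0. Named in full were members at least 2-fold apart and the 3 highest and 3 lowest differences of each class; of other lists, genes 2-fold apart or highest per kb could be named. Members, lists and rules were chosen with earlier results of these data known. Scripts used Python 3.11.15, pandas 2.3.3 and scipy 1.17.1, and were tested on simulated data. Every other member could be named except 1, whose own values are not reported here.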

Additional observations from a re-analysis of the deposited data

How the results depend on the processing

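Median-ratio scaling and quantile normalization, which put the median of all genes at -0.027 and 0.059, changed the most values. They left 1 and 1 member at least 2-fold higher and 4 and 4 at least 2-fold lower, and 1 and 1 gene of the other lists higher. Of all 14704 genes tested, they left 1758 and 1799 higher and 2003 and 1831 lower. The cytosolic median became 0.028 and 0.11, and the mitochondrial median -0.086 and 0.060. At a 1.5-fold threshold, 7 of 38 members were higher and 4 lower, with 15 and 8 of the 53 genes of the other lists. At that threshold 5096 of the 14704 genes were higher and 2468 lower. A pseudocount of 5 RPM left 2 genes of the other lists higher and 4 lower, beside 1202 and 706 of all genes. Without division by length, mitochondrial genes held 7.49% and 25.8% of the summed level, with the longest coding transcript 7.94% and 23.5%, and without Lars2, chosen after seeing the data, 6.69% and 7.75%. Under median-ratio scaling the direction turned for Aars (-0.038), Cars2 (-0.014), Dars (-0.088), Fars2 (-0.086), Iars (-0.27), Lars (-0.29), Qars (-0.15), Sars2 (-0.10), Tars2 (-0.035) and Tarsl2 (-0.0062), and under quantile normalization for Iars (-0.20), Lars (-0.16), Qars (-0.081) and Sars2 (-0.036). The list medians that turned were those of the multisynthetase complex synthetases (-0.21 and -0.12), the editing genes (-0.24 and -0.19), the mitochondrial modification genes (-0.24 and -0.13) and, under median-ratio scaling, the mitochondrial elongation factors (-0.10). Other list medians kept their direction but moved. They were 0.49 and 0.66 for the cytosolic elongation factors, 0.26 and 0.41 for tRNA end processing and export, and 0.23 and 0.36 for the selenocysteine-tRNA genes. The scaffold genes had 0.32 and 0.46, and the amino acid response list had -0.55 and -0.44. These scalings assume another total for each column. Every member was lower under median-ratio scaling than on RPM. The members that turned under it were those with the smallest RPM differences above 0, from 0.025 for Lars to 0.28 for Cars2. What lies behind the shift between the columns was not tested. A further count left out 11 members with 5% or more of their exon bases either shared with another gene that has a row or present as near copies. It left 3 members higher and 2 lower. The higher member left out was Kars, through its near copies. No paired analysis was possible because each condition has a single pooled column, and for the same reason no replicate could be left out. Planned protein comparisons were not made. The IV 20% O2 column is 3.23 times shallower, which limits the low genes Aars2, Hars2 and Sars2.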
